A study of Mus musculus with 5 samples.

Results

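The cadherin family of adhesion genes was followed here in the iridocorneal angle, the ring of tissue between iris and cornea through which aqueous humor drains. Members were the protein-coding genes whose mouse symbol is Cdh or Pcdh followed by a number alone, or Dsg or Dsc followed by a number with or without a letter. This gave 43 members among the 56941 genes of the count table. The rule itself uses no measured value, but it and the gene lists used below were set with earlier results of these data known. The clustered protocadherins, the Fat and Celsr genes and Pcdh11x fall outside the rule. RNA was sequenced from 3 pools of DBA/2J mice and 2 pools of DBA/2J-Gpnmb+/SjJ mice (Gpnmb+), males and females aged 12 months. DBA/2J mice carry a truncating Gpnmb allele together with the Tyrp1 b allele and develop pigmentary glaucoma. Gpnmb+ mice are the matched strain in which the functional Gpnmb allele has been put back, and they keep the Tyrp1 b allele. Each pool was stated to hold 3 mice, while the library names list 3 animals for every DBA/2J pool and 2 for each Gpnmb+ pool.

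Cadherins are calcium-dependent adhesion proteins of the cell surface. Classical cadherins bind the same or a related cadherin on the neighboring cell and are tied through catenins to the actin cytoskeleton, forming adherens junctions. Desmogleins and desmocollins do the same in desmosomes, where plakoglobin, plakophilins and desmoplakin link them to keratin filaments, and they are typical of stratified epithelia such as that of the cornea. Nonclustered protocadherins have weaker adhesive activity and are best known from the nervous system. In the angle, epithelial, mesenchymal, endothelial, glial and neural tissues lie side by side, and each carries its own set of cadherins.

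The pools held 43900661 to 49837758 counts on genes. Gpnmb itself, which the DBA/2J allele truncates, had 1946 to 2234 counts in the DBA/2J pools and 110568 to 129659 in the Gpnmb+ pools. Sex-linked RNA went against the label of males and females in the Gpnmb+ pools. There the Y-linked Ddx3y stood at 0 and 4 counts, while the DBA/2J pools held 1567 to 4168, and all 4 Y-linked genes examined (Ddx3y, Eif2s3y, Kdm5d and Uty) were called higher in DBA/2J. Xist, the RNA of the inactive X chromosome, was absent from DBA/2J pool 2, reached 596 and 2417 counts in the other DBA/2J pools and 7843 and 9152 in Gpnmb+. The sex composition of the pools and their genotype therefore cannot be told apart in any comparison given here. Of 5 trabecular meshwork markers, 4 were found in the table and all of those were expressed, with a summed level of 875 to 1060 CPM (counts relative to the library size as scaled by TMM, an edgeR method) in DBA/2J and 1326 to 1340 CPM in Gpnmb+. All libraries are bulk tissue, so fewer cells of a type and less RNA per cell cannot be told apart in any result given here.

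Of the 43 members, 40 had at least 10 counts in at least 1 pool and were tested. The other 3 were Cdh16, with a single count in Gpnmb+ pool 1, Dsg4, with 2 counts in DBA/2J pool 2, and Dsg1c, with 1 to 9 counts per pool. Levels between genes were compared as CPM per kilobase of exon. The most abundant member was Dsc2, desmocollin 2, with 66.8 to 113 CPM per kb over the 5 pools. Dsc3 followed with 34.8 to 64.8, Cdh1 (E-cadherin, the main adherens junction cadherin of epithelia) with 33.4 to 54.7 and Dsg3 with 30.6 to 62.0 CPM per kb. The ranges of Dsc3, Cdh1 and Dsg3 overlapped, so their order was not resolved, while Dsc2 lay above all of them. Cdh5 (VE-cadherin of endothelial cells, 11.8 to 21.7 CPM per kb) and Cdh11 (a cadherin of mesenchymal cells, 10.98 to 16.4) were the most abundant type II cadherins, and their ranges overlapped too. Among protocadherins Pcdh7 (6.11 to 8.15) and Pcdh1 (6.37 to 8.20) had the highest levels per length. At the lower end, Cdh7, Cdh10, Cdh12, Cdh15 and Cdh18 reached at most 0.0793 CPM per kb in any pool, with 37 counts or fewer. Summed over all 43 members, the family held 1959 to 2545 CPM in DBA/2J and 2263 to 2530 CPM in Gpnmb+, and desmosomal cadherins made up 48.1% to 58.0% of that sum in DBA/2J and 62.2% to 63.5% in Gpnmb+.

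**Figure D1:**
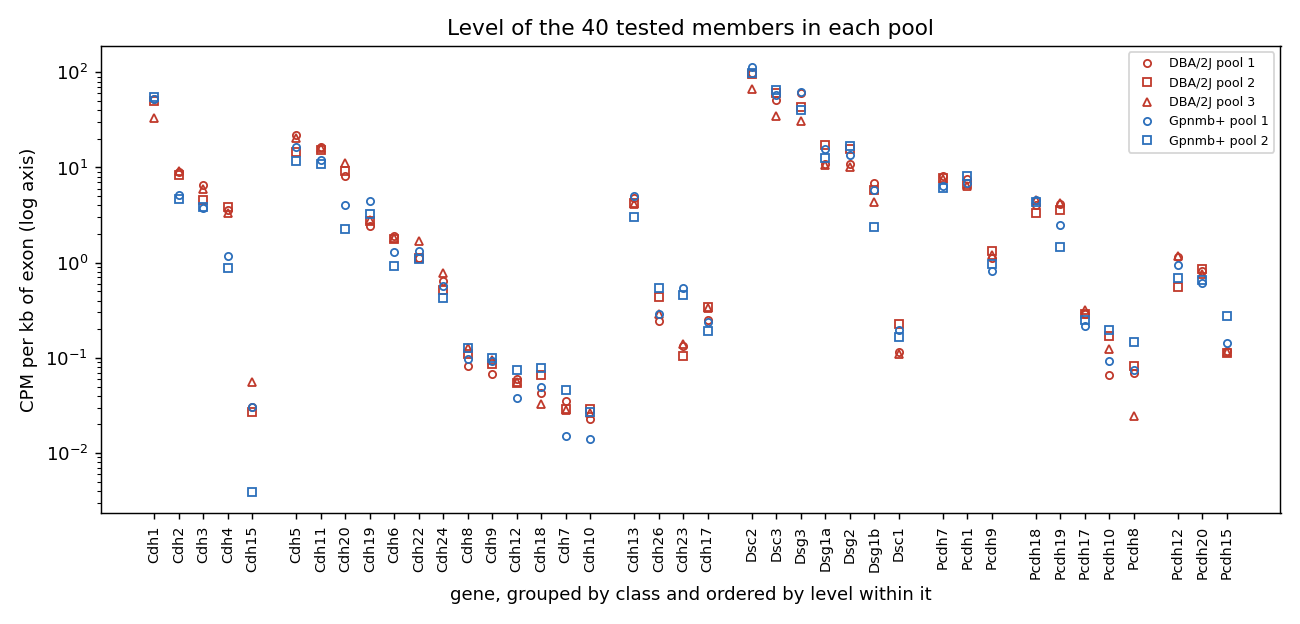
Level of each of the 40 tested members in each pool, in CPM per kilobase of exon on a log axis, with genes grouped by class and ordered by mean level within it; red marks are DBA/2J pools and blue marks Gpnmb+ pools. Dsc2 stands highest, at 66.8 to 113, and the red and blue marks are apart for Cdh4, Cdh2, Cdh20 and Cdh23.

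The genotypes were compared with edgeR's quasi-likelihood test over all 19713 genes with enough counts. Calls needed a Benjamini-Hochberg adjusted p no higher than 0.05 together with a difference of 1.5-fold or more, and a positive log2 value means more RNA in DBA/2J. Cdh4 and Cdh2 rose in DBA/2J and Cdh23 fell. These 3 of 40 tested members compare with 0.796% of all tested genes called in either direction, 0.502% higher and 0.294% lower. With the p left unadjusted and the same 1.5-fold minimum, 5 members were higher (Cdh4, Cdh20, Pcdh19, Cdh2 and Cdh6) and 2 were lower (Cdh23 and Pcdh15), so 7 of 40 against 8.67% of all tested genes, 4.20% higher and 4.48% lower. All DBA/2J pools lay above both Gpnmb+ pools for 12 members and below both for 4 (Cdh23, Pcdh15, Cdh19 and Cdh1), where 34.5% of all tested genes had pools that did not overlap, 17.3% higher and 17.2% lower. The median log2 fold change was 0.07 over the 40 members and -0.02 over all tested genes. For 26 of the 40 members the widest gap between 2 pools of one genotype exceeded the genotype difference itself, as it did for 76.2% of all tested genes.

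The 3 calls rested on the full set of pools, and calls over all genes also became few when a DBA/2J pool was left out. Without DBA/2J pool 1, 2 or 3, edgeR called 6, 1 and 17 of all tested genes, against 157 with every pool. Leaving out DBA/2J pool 1, 2 or 3, or Gpnmb+ pool 2, left no member called by edgeR, while leaving out Gpnmb+ pool 1 kept Cdh4, Cdh2 and Cdh23 and added Cdh20 and Pcdh19. The sizes moved little: over the 5 fits with a pool left out, the log2 fold change of Cdh4 ran from 1.63 to 2.04, that of Cdh2 from 0.79 to 0.91 and that of Cdh23 from -2.09 to -1.86, with adjusted p-values up to 0.0991, 0.137 and 0.107 from edgeR. DESeq2's Wald test, which called 4.70% of the genes (2.76% higher and 1.94% lower), called 7 members, namely those 3 with Cdh20, Cdh6, Pcdh19 and Cdh3.

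**Figure D2:**
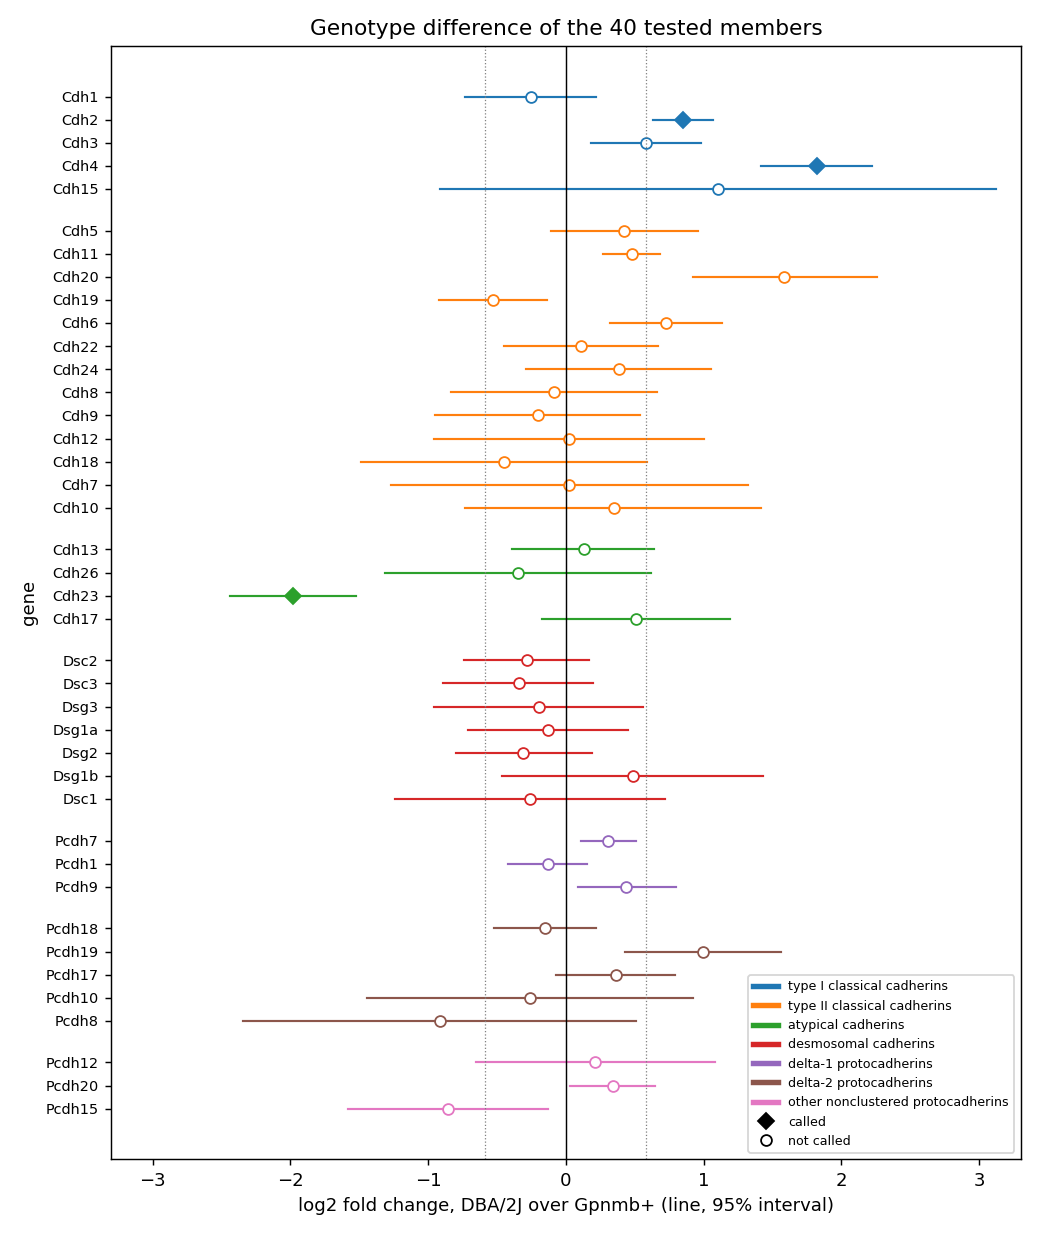
Log2 fold change of DBA/2J over Gpnmb+ for the 40 tested members, grouped by class, with the 95% interval from the edgeR fit as a line; filled diamonds are called genes and dotted lines mark a fold change of 1.5 in either direction. Cdh4 (1.82), Cdh2 (0.85) and Cdh23 (-1.98) are the called genes, and the intervals of all 7 desmosomal cadherins include 0.

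Among type I classical cadherins, the neural-type Cdh4 and Cdh2 were called higher in DBA/2J and the epithelial E-cadherin was not. By estimate 4 of the 5 members were higher, among them the epithelial Cdh3 given below, so the direction did not divide neural from epithelial members. Cdh4 (R-cadherin, ENSMUSG00000000305), known from retina and brain, is at chr2:179084201-179541166 (GRCm39). DBA/2J pools 1 to 3 held 1154, 1214 and 1092 of its counts, Gpnmb+ pools 1 and 2 held 430 and 312. The lowest DBA/2J pool was thus well above the higher Gpnmb+ pool. Its level was 26.2 ± 1.92 CPM (SD, n = 3) in DBA/2J and 7.43 ± 1.48 CPM (SD, n = 2) in Gpnmb+, which is 3.53-fold. On the log2 scale this is 1.82, with a standard error of 0.16, a 95% interval of 1.42 to 2.22 and edgeR's adjusted p = 0.0244. Cdh2 (N-cadherin, the cadherin of neural and many mesenchymal cells, on chromosome 18) had 3440, 3097 and 3559 counts against 2239 and 1988. The DBA/2J pools lay close together, as did the Gpnmb+ pools, at 76.4 ± 3.91 CPM (SD, n = 3) and 42.4 ± 2.47 CPM (SD, n = 2). The difference was 1.80-fold, or 0.85 on the log2 scale, with a standard error of 0.09, a 95% interval of 0.63 to 1.07 and edgeR's adjusted p = 0.0283.

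Cdh1 lay below both Gpnmb+ pools in each DBA/2J pool, with 241, 231 and 155 CPM against 244 and 254, but its log2 fold change of -0.25 was not called and its 95% interval ran from -0.73 to 0.22. DBA/2J pool 3 alone made most of that gap. Cdh3 (P-cadherin, found in basal epithelial layers and pigment epithelium), which lies 46.0 kb from Cdh1 on chromosome 8, had 43.5, 30.2 and 38.9 CPM in DBA/2J and 24.7 and 25.4 CPM in Gpnmb+. At 0.58 on the log2 scale (edgeR's adjusted p = 0.175) it was not called by edgeR. Cdh15, the M-cadherin of muscle progenitors, had only 1 to 13 counts per pool. Set against each other per length, the ratio of Cdh2 to Cdh1 was 0.172, 0.167 and 0.276 across DBA/2J pools 1 to 3 but 0.0968 and 0.0857 for Gpnmb+, and the ratio of Cdh4 to Cdh2 was 0.400, 0.467 and 0.365 against 0.229 and 0.187. Both ratios were higher in every DBA/2J pool. They are given as a description and were not tested.

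**Figure D3:**
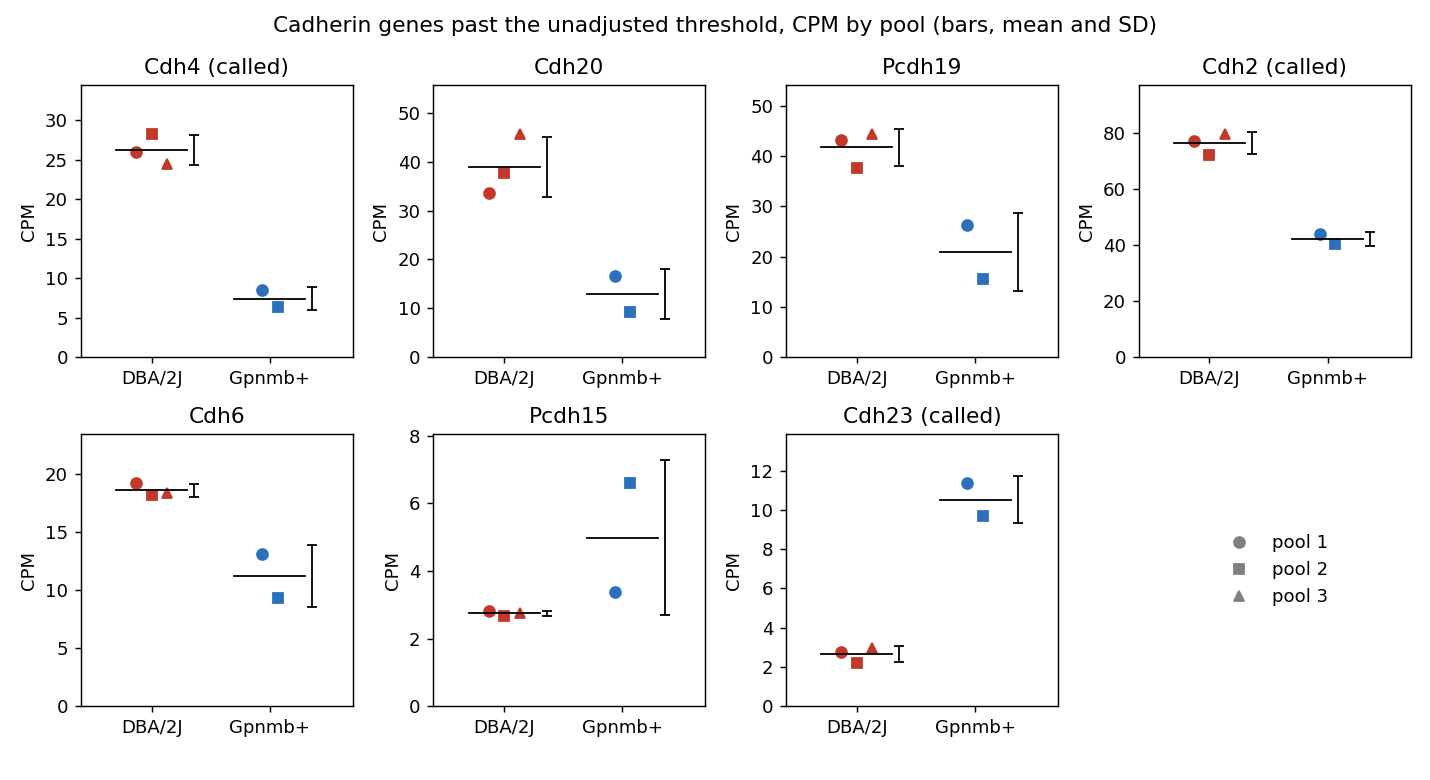
CPM by pool of the 7 members that passed the unadjusted threshold in edgeR; each mark is a pool, lines are group means and bars the SD. DBA/2J and Gpnmb+ pools do not overlap in any panel, and the Gpnmb+ pools of Pcdh15 lie at 3.37 and 6.60 CPM.

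Of the 13 type II cadherins none was called by edgeR with the count minimum, although 2 passed the unadjusted threshold, both higher in DBA/2J. Summed over the class the level was 365, 324 and 373 CPM across DBA/2J pools 1 to 3 but 277 and 229 for Gpnmb+, so the pools did not overlap in the sum. Cdh11 was the largest part of that sum. Taken gene by gene, 9 of the 13 had overlapping pools, and the class median log2 fold change was 0.11. Cdh20, a cadherin of neural and neural crest tissues at chr1:104696236-104923207, had the widest difference, with 1490, 1613 and 2036 counts against 843 and 454. Its level was 38.9 ± 6.17 CPM (SD, n = 3) in DBA/2J and 13.0 ± 5.19 CPM (SD, n = 2) in Gpnmb+. This is 1.59 on the log2 scale with a standard error of 0.28 (edgeR's adjusted p = 0.0720). The Gpnmb+ pools stood apart from each other, at 16.6 and 9.28 CPM, and the difference was 2.07 on the log2 scale and called without pool 1, but 1.23 and not called without pool 2 (edgeR's adjusted p = 0.158). Leaving out a DBA/2J pool gave edgeR's adjusted p-values of 0.163 to 0.187, and edgeR without a count minimum called the gene (adjusted p = 0.0303). Cdh6 (K-cadherin, a cadherin of kidney and neural crest) had 19.2, 18.2 and 18.4 CPM against 13.1 and 9.34 CPM, which is 0.73 on the log2 scale (edgeR's adjusted p = 0.117). The abundant Cdh11 had 191, 177 and 186 CPM against 138 and 128 CPM, or 0.48 on the log2 scale with a standard error of 0.09 (edgeR's adjusted p = 0.0745), which is below the 1.5-fold minimum.

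Cdh19, a cadherin of Schwann cell precursors and glia that lies on chromosome 1 beyond Cdh20 and Cdh7, went the other way. It had 13.2, 14.9 and 15.2 CPM in DBA/2J and 24.0 and 17.7 CPM in Gpnmb+, and at -0.53 on the log2 scale (edgeR's adjusted p = 0.199) it was not called. Per length, Cdh20 exceeded Cdh19 in every DBA/2J pool, where the ratio of Cdh19 to Cdh20 was 0.250 to 0.298, while in the Gpnmb+ pools that ratio was 1.08 and 1.43. Cdh7, which lies between them, had 8 to 23 counts per pool and a log2 fold change of 0.02. Cdh5 had 95.2, 63.0 and 89.2 CPM against 71.3 and 51.5 CPM, and these groups overlapped. The other type II members, Cdh8, Cdh9, Cdh10, Cdh12, Cdh18, Cdh22 and Cdh24, all had overlapping pools and log2 fold changes between -0.45 and 0.38.

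Markers of tissues next to the angle moved with several of these genes. All 9 nonpigmented ciliary epithelium markers were higher in DBA/2J by estimate, with a median log2 fold change of 1.56 and none at 0. Their summed level was 1036, 1184 and 1341 CPM across DBA/2J pools 1 to 3 but 442 and 261 for Gpnmb+. Cdh20 ranked the 5 pools in the same order as that sum. Cdh2, Cdh4 and Cdh6 separated the genotypes as it did but ordered the DBA/2J pools differently. All 7 Schwann cell markers were lower by estimate, and their sum was 144 to 189 CPM in DBA/2J and 223 to 267 CPM in Gpnmb+. It was higher in Gpnmb+ pool 2 than in pool 1, whereas Cdh19 was higher in pool 1. Mbp, the most abundant of the 7 markers, made up most of that gap, with 143 CPM in Gpnmb+ pool 1 and 189 CPM in pool 2. The part of these tissues in the differences of Cdh20, Cdh2, Cdh4, Cdh6 and Cdh19 was not tested. Endothelial markers, which bear on Cdh5, had a sum of 438 to 562 CPM in DBA/2J and 490 to 501 CPM in Gpnmb+. It was lowest in DBA/2J pool 2, as Cdh5 was within that genotype. Over all pools Cdh5 was lowest in Gpnmb+ pool 2, where the sum was not. The part of endothelium in the Cdh5 levels was not tested.

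Among the atypical cadherins Cdh23 stood out, and it was the one called member that fell in DBA/2J. Cadherin 23 is a very large cadherin with a long extracellular region that forms, together with protocadherin 15, the tip links of hair cells in the inner ear, and both are also present in photoreceptors. Cdh23 (ENSMUSG00000012819) is at chr10:60138527-60532269 on the minus strand. DBA/2J pools 1 to 3 held 124, 95 and 133 of its counts, Gpnmb+ pools 1 and 2 held 577 and 473. Each Gpnmb+ pool held several times the count of any DBA/2J pool. The level was 2.66 ± 0.40 CPM (SD, n = 3) in DBA/2J and 10.5 ± 1.204 CPM (SD, n = 2) in Gpnmb+, which makes DBA/2J 3.95-fold lower. On the log2 scale this is -1.98, with a standard error of 0.19, a 95% interval of -2.44 to -1.52 and edgeR's adjusted p = 0.0262.

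Its tip link partner Pcdh15, 12.4 Mb away on chromosome 10, was between 115 and 125 counts throughout DBA/2J, against 171 and 323 for Gpnmb+. The DBA/2J pools were nearly equal, and the excess in Gpnmb+ came mainly from pool 2. The difference of -0.86 on the log2 scale (standard error 0.30, edgeR's adjusted p = 0.253) shrank to -0.29 without Gpnmb+ pool 2. The sum of 6 photoreceptor markers was also highest in that pool, at 2035 CPM, against 385 CPM in Gpnmb+ pool 1 and 637 to 932 CPM in the DBA/2J pools. Gpnmb+ pool 1, with the smallest photoreceptor sum, had the most Cdh23. Of 6 neuron markers, 4 were lower and 2 higher in DBA/2J by estimate, 4 had overlapping pools and Nefm alone was called, lower in DBA/2J, with a sum over the list of 25.9 to 54.4 CPM in DBA/2J and 72.7 and 145 CPM in Gpnmb+, and Nefm made up the largest share of the difference in that sum. The part of photoreceptors and neurons in the Cdh23 difference was not tested. Of the other atypical members, Cdh13 (T-cadherin, which is anchored to the membrane by a lipid and lacks a cytoplasmic tail) had overlapping pools at 47.9 to 55.8 CPM and 57.8 and 35.2 CPM, with a 95% interval of the log2 fold change from -0.39 to 0.64. Cdh17, an intestinal cadherin, and Cdh26 were sparse, with 43 to 67 and 33 to 79 counts per pool.

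Promoter windows from RefSeq (GRCm38.p6) were found for 22 of the 43 members, Cdh20 and Cdh23 among them. These windows are shown because Cdh23 was the called member that fell and Cdh20, which was not called by edgeR, had the largest positive estimate after Cdh4. Each is the 250 bases before the RefSeq start, with every E-box (CANNTG, the same on both strands) in capitals. Each was placed on GRCm39 by an exact match, and the Cdh20 window runs a few bases past the GENCODE gene start given above. E-boxes are known binding sites of the Snail and Zeb repressors of classical cadherins when they read CACCTG or, on the other strand, CAGGTG.
Cdh20, chr1:104695995-104696244, plus strand: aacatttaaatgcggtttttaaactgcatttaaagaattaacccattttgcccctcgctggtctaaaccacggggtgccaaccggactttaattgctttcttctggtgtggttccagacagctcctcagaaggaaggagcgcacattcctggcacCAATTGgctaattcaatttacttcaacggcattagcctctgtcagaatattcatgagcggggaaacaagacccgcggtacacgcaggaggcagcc
Cdh23, chr10:60532270-60532519, minus strand: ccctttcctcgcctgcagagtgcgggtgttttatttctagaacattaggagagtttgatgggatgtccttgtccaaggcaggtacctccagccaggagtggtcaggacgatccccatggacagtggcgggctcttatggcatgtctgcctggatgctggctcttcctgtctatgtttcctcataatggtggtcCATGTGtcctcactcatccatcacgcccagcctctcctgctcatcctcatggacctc
Each window held 1 E-box, CAATTG in Cdh20 and CATGTG in Cdh23, and neither held CACCTG on either strand. Of the 25 windows of members, 52.0% held an E-box and 12.0% held CACCTG on either strand, where 66.2% and 17.2% of the 32851 windows of all genes did.

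Desmosomal cadherins gave the highest levels of the family and no genotype difference that stood above the spread between pools. All 9 genes lie together on chromosome 18, from 20093987 to 20737581, and 7 were tested. None was called, the pools overlapped for all 7, and 6 of 7 had a lower estimate in DBA/2J, with log2 fold changes from -0.34 (Dsc3) to -0.13 (Dsg1a). With a pool left out the estimate ran from -0.48 to 0.15 for Dsg3 and from -0.39 to 0.04 for Dsg1a, so that tally depends on single pools. For each of the 7 the gap between pools of one genotype was wider than the genotype difference. Dsc2 had 534, 521 and 363 CPM across DBA/2J pools 1 to 3 but 615 and 533 for Gpnmb+, or -0.28 on the log2 scale with a 95% interval of -0.74 to 0.17. Dsc3 had 274, 326 and 189 CPM against 315 and 351 CPM, and Dsg3 had 422, 300 and 213 CPM against 433 and 282 CPM. DBA/2J pool 3 was the lowest of the 5 pools for 6 of the 7 genes, Dsg1b being the exception. Over all 9 desmosomal genes the sum was 1422, 1418 and 942 CPM in DBA/2J and 1606 and 1408 CPM in Gpnmb+.

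The same pool was lowest in corneal epithelium markers. The sum of the 7 markers was 9900, 10870 and 6559 CPM across DBA/2J pools 1 to 3 but 12170 and 10780 for Gpnmb+, with 6 of 7 lower in DBA/2J by estimate and none called. Among them Krt12, the keratin of corneal epithelium, ran from 421 to 11298 counts in DBA/2J and was 86337 and 27106 in Gpnmb+. None of these markers was at 0, and their part in the desmosomal levels was not tested. Dsg1b, whose 95% interval ran from -0.46 to 1.43, differed more within Gpnmb+ (22.9 and 9.32 CPM) than between genotypes. Dsg1a, Dsg1b and Dsg1c are near-identical copies, and reads aligning to more than one place were discarded, so the split of counts among them is uncertain. Dsc1, a desmocollin of the outermost epidermis, had 25 to 50 counts per pool.

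**Figure D4:**
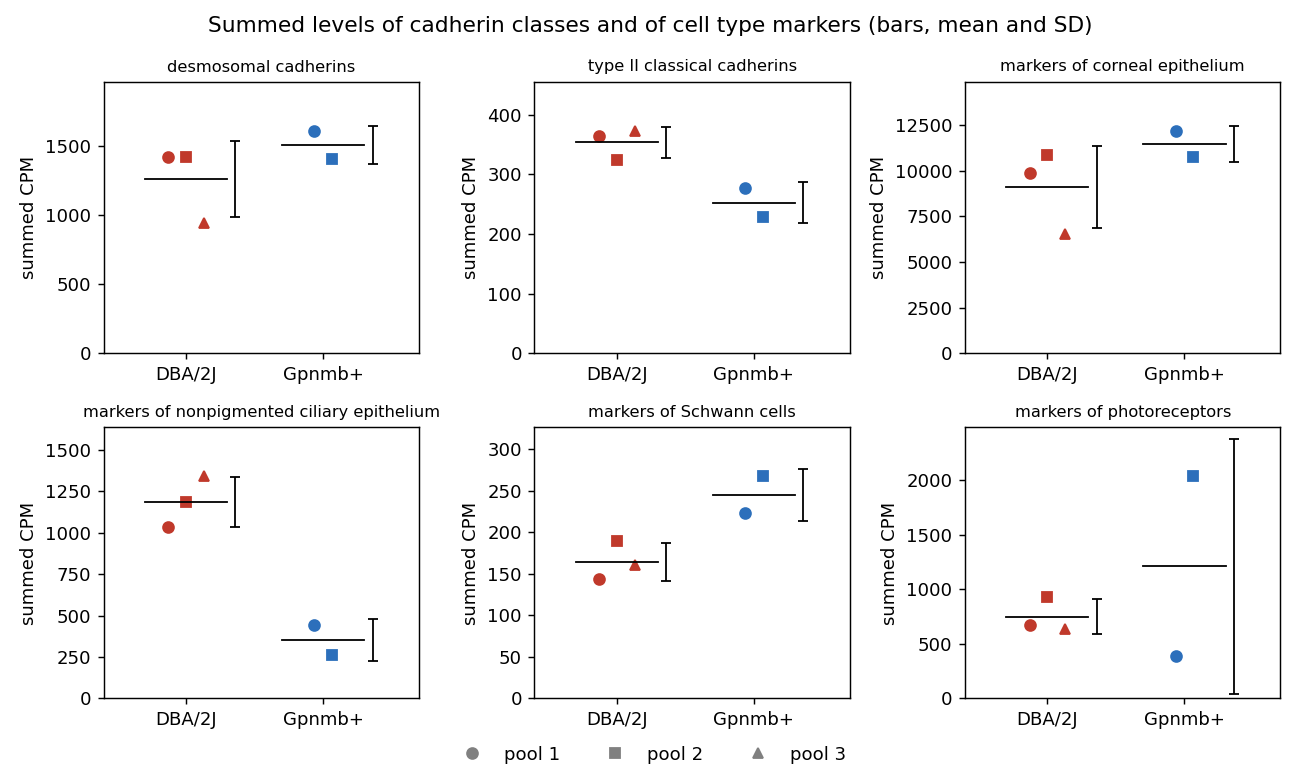
Summed CPM by pool of the desmosomal and type II cadherins and of 4 marker lists; each mark is a pool, lines are group means and bars the SD. DBA/2J pool 3 (triangle) is lowest both in desmosomal cadherins (942) and in corneal epithelium markers (6559), and the ciliary epithelium markers separate the genotypes (1036 to 1341 against 261 to 442).

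None of the 11 tested nonclustered protocadherins was called by edgeR, and 2 passed the unadjusted threshold. Pcdh19, a delta-2 protocadherin known from X-linked epilepsy, was the one with the largest positive fold change. DBA/2J pools 1 to 3 held 1919, 1612 and 1978 of its counts, Gpnmb+ pools 1 and 2 held 1337 and 755, with no overlap. The difference was 1.00 on the log2 scale (standard error 0.23, 95% interval 0.43 to 1.56, not called by edgeR). Without Gpnmb+ pool 1 it was 1.44 and called, and without Gpnmb+ pool 2 it was 0.66. Pcdh19 is the one member on the X chromosome, and the Xist and Ddx3y counts given above differ between the same pools. Their part in the Pcdh19 difference was not tested.

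The delta-1 member Pcdh7 was steady, with 141, 134 and 130 CPM against 112 and 106 CPM, and its difference of 0.31 on the log2 scale (standard error 0.08, edgeR's adjusted p = 0.157) was below the 1.5-fold minimum. Pcdh9 (log2 fold change 0.44), Pcdh20 (0.34) and Pcdh17 (0.36) also had every DBA/2J pool above both Gpnmb+ pools without being called. These genes lie on chromosome 14, Pcdh17 being 3.92 Mb from Pcdh20 and Pcdh20 4.54 Mb from Pcdh9, and Pcdh8, 4.67 Mb from Pcdh17 on the other side, had an estimate of -0.92 with overlapping pools. Pcdh1, an epithelial protocadherin (-0.13), and Pcdh18 (-0.15) had overlapping pools, with 95% intervals of -0.42 to 0.15 and -0.52 to 0.22. Pcdh12, the endothelial protocadherin, had 6.91, 3.38 and 7.13 CPM against 5.78 and 4.23 CPM, and like Cdh5 it was lowest in DBA/2J pool 2 within that genotype. Pcdh10 and Pcdh8 were sparse, with 52 to 169 and 5 to 33 counts. Of Pcdh8, 2108 of 4538 exon bases overlap a noncoding RNA on the other strand, 4930452G13Rik, so its counts are uncertain.

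Catenins tie the classical cadherins to actin. Of 14 catenins and adherens junction partners none was called by edgeR, and by estimate 7 were higher and 7 lower. The unadjusted threshold was passed by 3, all higher in DBA/2J, where 4.20% of all tested genes passed it higher and 4.48% lower. These were Ctnnd2 (delta-catenin of neurons, 0.98 on the log2 scale), Arvcf (a related catenin, 0.67) and Vcl (vinculin, 0.62). The median of the list was 0.06. Of 9 desmosomal plaque genes none was called and 7 were lower by estimate, with a median log2 fold change of -0.39. Dsp (desmoplakin) had a log2 fold change of -0.41 and Ppl (periplakin) one of -0.57, while Pkp2 (plakophilin 2) had 0.49. As with the desmosomal cadherins, DBA/2J pool 3 was the lowest in their sum, at 2837 CPM against 3394 to 4116 in the others.

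Adhesion genes outside the family included 2 calls. Cadm2, a neuronal immunoglobulin-type adhesion gene, rose among 9 nectins and related genes, at 45.6 ± 3.28 CPM (SD, n = 3) against 21.9 ± 0.03 CPM (SD, n = 2) or 1.06 on the log2 scale (edgeR's adjusted p = 0.0244). Nectin3, which with Nectin1 joins the layers of the ciliary epithelium, stood at 1.42 on the log2 scale and was not called (edgeR's adjusted p = 0.0867). Clstn2 (calsyntenin 2, a synaptic member of the cadherin superfamily) fell among 16 tested genes of the wider superfamily, from 1475 and 1283 counts for Gpnmb+ to 319 to 376 for DBA/2J, or -1.83 on the log2 scale (edgeR's adjusted p = 0.0175). The giant cadherin Fat3 had -1.09 and Pcdh11x -1.18, both uncalled, and Fat1 had 0.05. Of 8 repressors of cadherins and related regulators none was called. Snai2 (Slug) had a log2 fold change of -0.52, Zeb1 -0.14 and Snai1 0.02. None of 8 tested proteases that cleave or mature cadherins was called, with Adam10, the main sheddase of classical cadherins, at -0.04 and Furin at 0.23.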

How the data were processed

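RNA from pooled iridocorneal angles was measured in 5 libraries. The authors trimmed the reads (fastp), mapped them with STAR on GRCm39 (Ensembl 110) and deposited, without normalization, the count of uniquely mapped reads for every gene. Tool versions and the strand used in counting are not given in the sources used here. No libraries held identical values. Symbols, positions and exon lengths came from GENCODE M39 (GRCm39), which held 56323 of the 56941 identifiers. Exons of 23 members overlap a noncoding gene, which had at most 61 counts where it was in the table.

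Genes reaching 10 counts in any pool were kept, scaled by TMM and compared in R 4.3.3 with edgeR 4.0.16 (quasi-likelihood test, no covariate, Benjamini-Hochberg adjustment over all 19713 tested genes). Standard errors were the log2 fold change divided by the square root of F. The test was also tried on simulated data. Alternatives were DESeq2 1.42.0, DESeq2's size factors in edgeR, other count filters, the replicate number as a block, no fold change minimum and each pool left out. Each pool averages several mice, so the tests set the genotype difference against the spread between pools and not between mice. That spread is estimated for each gene with information shared across genes.

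The members, their classes and the gene lists were chosen with earlier results of these data known. Any member with at least 10 counts could be named. Full values were set for members called, past the unadjusted threshold or most abundant in their class, and for called genes, defining markers and up to 3 others of each list. Cdh3, Cdh11, Cdh19, Dsc3, Dsg3, Dsg1b and the values of Pcdh9, Pcdh17 and Pcdh20 were added after their values were seen. Single-gene results for some markers are not reported here.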

Additional observations from a re-analysis of the deposited data

How the results depend on the processing

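Cdh4, Cdh2 and Cdh23 were called by edgeR with DESeq2's size factors, with filterByExpr, without a count minimum, without a fold change minimum and with the replicate number as a block, and by DESeq2. Without a count minimum Cdh20 was called too, making 4. Members called numbered 7 with DESeq2 (6 higher and 1 lower) and ran from 0 to 5 with a pool left out (0 to 4 higher, 0 to 1 lower). Genes called among all tested numbered 927 with DESeq2, 360 without a count minimum and 1 to 217 with a pool left out, against 157. Members past the unadjusted threshold numbered 13 without a fold change minimum, against 7. The share of all tested genes past that looser threshold was not taken, so the 13 has no background to be read against. The median log2 fold change of the members was 0.021 with filterByExpr and ran from 0.031 to 0.146 with a pool left out, against 0.066.

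Among the members set for full values, 2 changed sign under an alternative, neither of them called: Cdh13 (-0.185 without Gpnmb+ pool 2, the lowest of its values with a pool left out, of which 0.533 was the highest) and Pcdh12 (-0.025 with the replicate block). With a pool left out, signs also changed in other uncalled members, among them Dsg3 (-0.48 to 0.15), Dsg1a (-0.39 to 0.04) and Dsg1b (-0.02 to 1.28). The cause of these shifts was not tested. The pool numbers pair nothing by the labels, and only 2 numbers are shared. With the block, 220 genes and 3 members were called, and same-numbered pools had deviations correlated at 0.279 and 0.254 across genes. The deviations of the 2 Gpnmb+ pools mirror each other, so pools of the other number had -0.279 and -0.254. These values are therefore not independent and cannot tell whether the numbers pair pools. Fits with 1 Gpnmb+ pool assume that it varies like the DBA/2J pools. Depth limits Cdh7, Cdh9, Cdh10, Cdh12, Cdh15, Cdh18 and Pcdh8, with at most 37 counts in any pool.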

Other observations

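Further genes of the hair cell tip link and of Usher syndrome proteins were read after the Cdh23 values had been seen, so they are a description. Of 13 such genes, 11 had enough counts. By estimate 9 of these were lower in DBA/2J, as were 10363 of all 19713 tested genes. The pools overlapped for 6 of the 11, and for 7 the gap within a genotype was wider than the genotype difference. Only 1 was called by edgeR, lower in DBA/2J, where 0.294% of all tested genes were called lower. That gene was Ptprq, a phosphatase of the hair bundle, with 2 to 4 counts per DBA/2J pool against 36 and 30 for Gpnmb+ (-3.23 on the log2 scale, edgeR's adjusted p = 0.0427). Ptprq reached the minimum of 10 counts only in the Gpnmb+ pools, where it was high. Its DBA/2J counts are near the floor, so its call and fold change carry little weight. Clrn1 passed the unadjusted threshold in the other direction, at 0.75. Myo7a, a motor protein of the hair bundle, had a log2 fold change of -0.10, and Whrn had one of -0.31. The median over the 11 genes was -0.33.

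Skeletal muscle markers, which bear on Cdh15, had a sum of 122, 195 and 330 CPM across DBA/2J pools 1 to 3 but 127 and 73.8 for Gpnmb+. Cdh15 had 7, 6 and 13 counts and 8 and 1 counts in the same order. The pool with the largest marker sum had the most Cdh15 and the pool with the smallest had the least. The pools between them did not follow the order of the sum. These counts are few, and the part of muscle in them was not tested. Melanocyte markers had 1 call among 6 (Slc45a2, lower in DBA/2J), conjunctival epithelium, fibroblast, photoreceptor and lens markers had none by edgeR, and the summed levels of fibroblast markers were 3067 to 3510 CPM in DBA/2J against 4060 and 4252 CPM in Gpnmb+.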
